A study of Arabidopsis thaliana with 6 samples.

Results

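The 5 genes described here are regulators of tissue patterning in plants: LHW (AT2G27230), DOF5.8 (AT5G66940), PHV (AT1G30490), JKD (AT5G03150) and YAB3 (AT4G00180). They were chosen by locus, with earlier results of these data known. Each had 1 probe set paired with that gene alone, so they make up 5 of the 22746 probe sets tested. RNA came from 9-day-old Arabidopsis thaliana seedlings in 6 separate liquid cultures, 2 per group, with 1 ATH1 array per culture. The mp group was the mp-B4149 line, mutant for the auxin response factor MONOPTEROS (MP), given 10 µM dexamethasone (DEX) for 1 h, followed by 1 h with the auxin IAA at 50 µM. The second group, GR-bdl with DEX, received the same treatment and carried pRPS5A-Myc-GR-bdl, in which the RPS5A promoter, known from dividing cells, drives a stabilised form of the Aux/IAA repressor BODENLOS (BDL) fused to the glucocorticoid receptor. The controls were GR-bdl seedlings given IAA alone. For mp, the titles of the samples name IAA only, while the source labels and the design text give DEX and IAA, which was followed here. Every culture was given auxin, so the effect of auxin itself was not measured, and DEX was not given to a line without the fusion protein other than mp. The accession behind each line and the number of transgenic lines are not given in the sources used here.

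MP switches on genes in response to auxin, and BDL binds MP and holds it back until auxin triggers the loss of BDL. Through MP, auxin directs the founding of the embryonic root and of the vascular strands, and mp seedlings are known for lacking an embryonic root. LHW is a basic helix-loop-helix factor that pairs with TMO5-type factors to drive divisions in young vascular tissue, and DOF5.8 is a zinc finger factor of vascular cells that other work placed downstream of MP. PHV is a class III homeodomain-leucine zipper factor of the upper leaf side and the vascular centre, kept out of other cells by microRNAs. JKD is a zinc finger factor of the INDETERMINATE DOMAIN (IDD) family that acts with SHORT-ROOT and SCARECROW in root ground tissue and affects which epidermal cells become root hairs. YAB3 is a YABBY factor of the lower side of leaves.

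Levels are log2 gcRMA intensities, and a difference is the first group minus the second on that scale. Each difference has its standard error (SE) from limma, and each SD is over the 2 arrays of a group. A gene was called when its limma adjusted p, over all 22746 probe sets, was under 0.05. A group mean under 4 is described as close to the lower limit of the gcRMA scale, where between 43.1% and 44.1% of all probe sets lay on each array. Levels of different probe sets are not compared with each other.

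In the mp group, JKD was lower and YAB3 higher than in each GR-bdl group. DOF5.8 was called lower in mp than in the controls, a call that did not hold in most other settings. Of the 5 genes, 3 were called in mp against the controls, where 41.5% of all probe sets were called. These were 1 higher (23.9% of all probe sets) and 2 lower (17.5%). In mp against GR-bdl with DEX, 2 were called, beside 40.1% of all probe sets, 1 higher (22.1% of all) and 1 lower (18.0%). None was called in GR-bdl with DEX against the controls, beside 2.27% of all probe sets (0.637% higher and 1.64% lower), although 2 had an unadjusted limma p under 0.05, JKD and DOF5.8. With a trended and robust prior, limma called 1 there, JKD. Beside these shares, the counts of 3 and 2 among 5 genes are a description only. The median difference of the 5 genes was −0.44 for mp against the controls, −0.19 for mp against GR-bdl with DEX and −0.15 for GR-bdl with DEX against the controls, and the median of all probe sets was 0.12, 0.07 and 0.04.

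**Figure D1:**
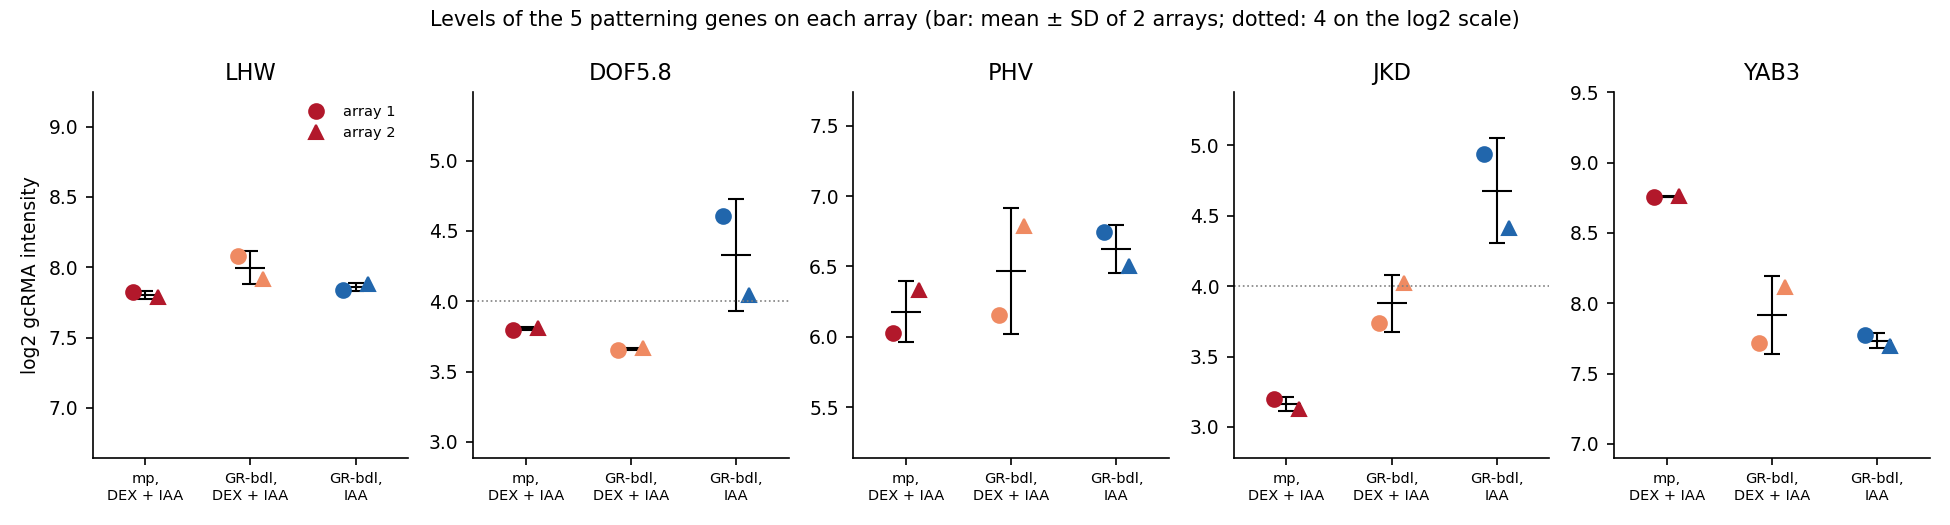
Log2 gcRMA intensity (y axis) of the 5 genes on each array, by group (x axis: mp, GR-bdl with DEX, and GR-bdl with IAA alone). Circles and triangles are arrays 1 and 2, and bars give mean ± SD. Each panel spans the same height. JKD is lowest in mp (3.13 and 3.20), YAB3 is highest in mp (8.75 and 8.76), and the arrays of LHW lie within 7.78 to 8.08.

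LHW differed least over the 3 groups. Its levels were 7.82 and 7.78 in mp, 8.08 and 7.91 in GR-bdl with DEX, and 7.84 and 7.88 in the controls. The group means spanned 0.19. The difference was −0.06 ± 0.11 (SE) for mp against the controls, with a 95% confidence interval of −0.31 to 0.20 and a limma adjusted p of 0.706. For GR-bdl with DEX against the controls it was 0.14 ± 0.11 (−0.12 to 0.39, limma adjusted p = 0.701), and for mp against GR-bdl with DEX it was −0.19 ± 0.11 (−0.45 to 0.06, limma adjusted p = 0.212). The arrays of the groups did not overlap in any of these comparisons, but the gaps were 0.02, 0.03 and 0.09, and groups did not overlap for 76.7%, 44.1% and 68.5% of all probe sets in the same order. These intervals lie within 0.45 of 0 on the log2 scale. When the arrays were instead centred on the hybridization controls, LHW was called lower in mp, by 0.37 against the controls and by 0.48 against GR-bdl with DEX. That scaling lowered the median of all probe sets by 0.31 and 0.29 in these comparisons. Relative to that median, LHW stood at −0.18 and −0.26 under either scaling.

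DOF5.8 had a higher mean in the controls than in the groups that received DEX, but only the difference between mp and the controls was called. Its levels were 3.80 and 3.81 in mp, 3.65 and 3.66 in GR-bdl with DEX, and 4.61 and 4.04 in the controls. The 4 arrays from seedlings given DEX lay within 0.16 of each other and close to the lower limit, below each control array. The control arrays differed between themselves more than any other pair for this gene, with an SD of 0.40, which was larger than that of 99.1% of the probe sets in that group. DOF5.8 fell in mp relative to the controls, by 0.52 ± 0.17, to 0.697 times the control level (95% interval of the difference −0.92 to −0.12, limma adjusted p = 0.0425). The difference of GR-bdl with DEX from the controls was of similar size, −0.67 ± 0.17 (−1.07 to −0.27), but was not called (limma adjusted p = 0.126), although its unadjusted limma p of 0.00478 was below that in mp, 0.0168. The intervals given here are not adjusted for the number of probe sets. Between mp and GR-bdl with DEX the difference was 0.15 ± 0.17 (−0.25 to 0.55, limma adjusted p = 0.551).

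The call on DOF5.8 in mp against the controls held in 4 of 13 other settings. Among these, the fit of the 4 arrays compared and those without either array of GR-bdl with DEX are the same fit for this comparison. Without control array 1 the difference was −0.24 (limma adjusted p = 0.292), and without control array 2 it was −0.80 (0.00515). Without control array 2, DOF5.8 was also called lower in GR-bdl with DEX than in the controls, at −0.95 (limma adjusted p = 0.0309). The call in mp was also lost without any of the other 4 arrays, at limma adjusted p values of 0.0576 to 0.130, after a repeated quantile normalization (−0.43), after centring on array medians (−0.48), when only the 4 arrays compared were fitted (0.0576) and with 16 added to each intensity (−0.27).

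A listed gene is called measured here where the annotation paired a probe set with that gene alone and with a RefSeq locus. Probe sets not paired in this way were tested but not assigned to a gene, so a gene not measured may still be on the array. Of 16 genes on a list of the DOF family, 3 other than DOF5.8 were measured. The names of these 3 are not in the annotation used here, so they are given by locus. AT4G24060 fell in mp, with a difference of −1.65 ± 0.14 from the controls and −1.41 ± 0.14 from GR-bdl with DEX. AT2G28510 fell by 1.40 ± 0.15 and 0.86 ± 0.15. AT5G02460, close to the lower limit in each group, differed by −0.07 ± 0.12 and −0.06 ± 0.12 and was not called. In either mp comparison 2 of 3 were called lower, beside 17.5% and 18.0% of all probe sets, with a median of −1.40 and −0.86. None of the 3 was called in GR-bdl with DEX against the controls, where the median was −0.24 and no member had a limma adjusted p below 0.160. Without adjustment limma's p was under 0.05 for 1 of them there, AT2G28510 (−0.55 ± 0.15). None of 12 vascular marker genes was measured in this sense. No level of vascular tissue therefore stands beside the values of DOF5.8, LHW and PHV, and its part in them was not tested. In RNA from whole seedlings, fewer cells of a type and less RNA per cell cannot be told apart.

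PHV was measured with the widest spread between arrays of a group. Its levels were 6.03 and 6.33 in mp, 6.15 and 6.79 in GR-bdl with DEX, and 6.75 and 6.50 in the controls. The arrays of GR-bdl with DEX enclosed both control arrays and overlapped with those of mp, while mp lay below the controls on each array. Their SD of 0.45 was larger than that of 97.7% of probe sets in that group. The difference was −0.44 ± 0.21 for mp against the controls, with an interval of −0.93 to 0.04 and a limma adjusted p of 0.129. It was −0.15 ± 0.21 for GR-bdl with DEX against the controls (−0.64 to 0.33, limma adjusted p = 0.843) and −0.29 ± 0.21 for mp against GR-bdl with DEX (−0.78 to 0.20, limma adjusted p = 0.324). The difference between GR-bdl with DEX and the controls had no stable sign, at −0.47 without array 2 of GR-bdl with DEX and 0.16 without its array 1. No order of the groups was shown for PHV, and decreases in mp of up to 0.93 were not excluded at this precision.

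Some settings gave PHV a call in mp. Fitted on the 4 arrays of mp and the controls alone, the same difference of −0.44 was called (limma adjusted p = 0.0464). Leaving out either array of GR-bdl with DEX gives the same fit for this comparison, so it is no further check. Without array 1 of GR-bdl with DEX, PHV was also called lower in mp than in the array left in that group, at −0.61 (limma adjusted p = 0.0361), and without array 2 the sign turned, at 0.03. Centred on the hybridization controls, PHV was called lower in mp than in the controls, by 0.75. The other class III homeodomain-leucine zipper genes, the small ZPR proteins that bind them and the Argonaute genes of this pathway, 10 listed genes in all, were not analysed here, nor were the 10 listed partners and targets of LHW or the 6 listed MP targets.

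**Figure D2:**
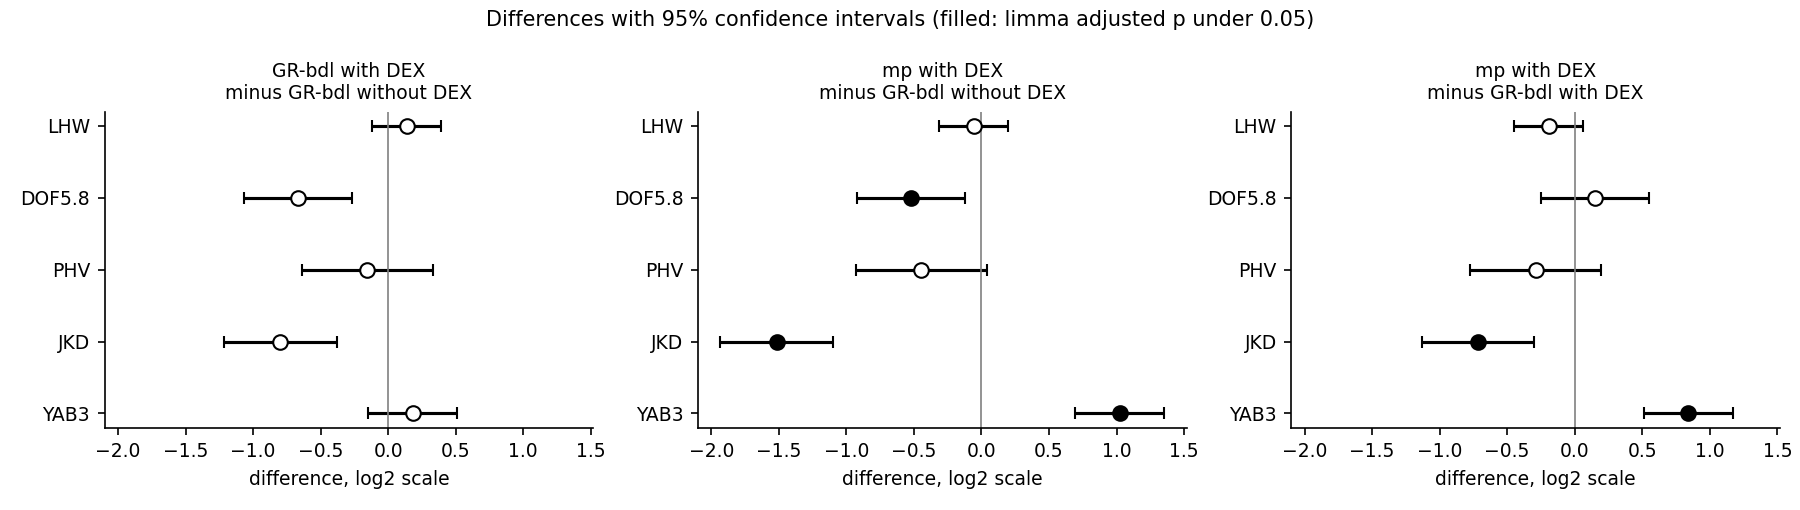
Differences on the log2 scale (x axis) for the 5 genes (y axis) in the 3 comparisons. Points are limma estimates, bars are 95% confidence intervals without adjustment for the number of probe sets, and filled points had a limma adjusted p under 0.05. JKD (−1.52) and YAB3 (1.02) lie farthest from 0 in mp against the controls, in opposite directions.

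JKD had the largest range of group means among the 5 genes, 1.52. Its levels were 3.20 and 3.13 in mp, 3.74 and 4.02 in GR-bdl with DEX, and 4.94 and 4.42 in the controls. The group means stood in the order mp, GR-bdl with DEX, controls from low to high. Their arrays did not overlap in any comparison, as held also for LHW and DOF5.8 and for the 44.1% to 76.7% of all probe sets given above. The means of mp and of GR-bdl with DEX (3.16 and 3.88) were both close to the lower limit, which limits how large a decrease can appear. JKD fell in mp relative to the controls by 1.52 ± 0.18, with an interval of −1.93 to −1.10 and a limma adjusted p of 0.000242, and the level in mp was 0.350 times that in the controls. JKD also fell in mp relative to GR-bdl with DEX, by 0.72 ± 0.18 (−1.13 to −0.30, limma adjusted p = 0.0136).

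The difference of JKD between GR-bdl with DEX and the controls was −0.80 ± 0.18, with an interval of −1.22 to −0.38. It was larger in size than that of 98.1% of all probe sets, but its limma adjusted p was 0.0756, so these neighbours in the order of levels were not told apart at the threshold used. This difference was called with a trended and robust prior (limma adjusted p = 0.0442), after centring on the hybridization controls (−0.82) and without control array 2 (−1.06, limma adjusted p = 0.0367). Without control array 1 it was −0.54 (limma adjusted p = 0.367). The decrease in mp against the controls was called in each of 13 other settings, where it lay between −1.83 and −0.74. The smaller decrease against GR-bdl with DEX was not called without array 2 of GR-bdl with DEX (−0.57, limma adjusted p = 0.0850), without mp array 2 (−0.68, limma adjusted p = 0.0652) or with 16 added to each intensity (−0.30).

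Other genes on a list of the IDD family moved in more than 1 direction in mp. Of 15 other genes on the list of the IDD family 4 were measured, and in either mp comparison 2 were called higher, 1 lower and 1 was not called. Of all probe sets, 23.9% were called higher and 17.5% lower against the controls, and 22.1% and 18.0% against GR-bdl with DEX. Beside these shares the counts are a description only. AT3G45260 had 4.97 and 4.52 in mp, 6.23 and 5.77 in GR-bdl with DEX, and 5.29 and 5.46 in the controls. It was lower in mp than in GR-bdl with DEX, with a difference of −1.25 ± 0.20 (limma adjusted p = 0.00114), and lower than in the controls, with −0.63 ± 0.20 (limma adjusted p = 0.0332). Its call against the controls was lost without control array 1 (0.0681), control array 2 (0.155) or mp array 2 (0.182), after a repeated quantile normalization (0.0527) and with 16 added to each intensity (0.118). AT1G14580 had 5.83 and 5.84 in mp, 5.60 and 5.22 in GR-bdl with DEX, and 4.91 and 5.04 in the controls.

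The arrays of AT1G14580 lay in the reverse order of those of JKD, without overlap between groups. It rose in mp by 0.86 ± 0.14 against the controls and by 0.42 ± 0.14 against GR-bdl with DEX (limma adjusted p = 0.00166 and 0.0472). The second call was lost without any array other than array 1 of GR-bdl with DEX (0.0725 to 0.225), where the difference without array 2 of that group was 0.23. It was also lost after a repeated quantile normalization, with 16 added to each intensity, with the replicate number as a block, with a trended and robust prior and in the 4 arrays alone (0.0542 to 0.0745), and after centring on the hybridization controls, where the difference was 0.14. IDD16 rose by 0.77 ± 0.11 and 0.70 ± 0.11 from close to the lower limit, and AT5G60470, near it in each group, differed by 0.18 ± 0.13 and 0.04 ± 0.13. The median of the 4 genes was 0.48 and 0.23 in these comparisons. None was called in GR-bdl with DEX against the controls, where the median was 0.29, and 2 had an unadjusted limma p under 0.05, AT3G45260 (0.63 ± 0.20) and AT1G14580 (0.44 ± 0.14). Both of these differences were positive, where that of JKD was negative.

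Of 16 genes of root radial and epidermal patterning 2 were measured. SCL23, a SCARECROW-LIKE gene whose product binds SHORT-ROOT, had 4.56 and 4.50 in mp, 5.57 and 5.71 in GR-bdl with DEX, and 5.24 and 5.21 in the controls. It fell in mp by 0.70 ± 0.11 against the controls and by 1.11 ± 0.11 against GR-bdl with DEX (limma adjusted p = 0.00118 and 8.36e-05), and differed by 0.41 ± 0.11 between GR-bdl with DEX and the controls (limma adjusted p = 0.137). TRY, which encodes a small MYB protein that patterns hairs of the epidermis, was close to the lower limit in each group and was called higher in mp, by 0.43 ± 0.14 and 0.45 ± 0.14. The TRY calls were lost with 16 added to each intensity (differences of 0.11 and 0.12), after centring on the hybridization controls (0.12 and 0.17) and, against the controls, after a repeated quantile normalization (0.35). They were also lost without mp array 2 (0.28 and 0.30), control array 1 (0.52) or 2 (0.34), or array 1 (0.41) or 2 (0.49) of GR-bdl with DEX.

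The root hair genes EXPA7 and EXPA18 fell in mp as JKD did, while the root marker PYK10 did not. The part of root tissue in the decrease of JKD was not tested. Of 17 listed root markers 3 were measured. EXPA7, an expansin gene of root hairs, had 3.54 and 3.76 in mp, 6.65 and 7.23 in GR-bdl with DEX, and 7.22 and 7.68 in the controls. EXPA18, of the same kind, had 3.80 and 3.60 in mp, 6.22 and 7.13 in GR-bdl with DEX, and 6.63 and 6.55 in the controls. PYK10, a beta-glucosidase gene known from roots, did not follow them, with 13.34 and 13.25 in mp, 13.24 and 13.15 in GR-bdl with DEX, and 13.17 and 13.21 in the controls. EXPA7 and EXPA18 were called lower in both mp comparisons and PYK10 in neither, beside 17.5% and 18.0% of all probe sets called lower. The median of the 3 was −2.89 against the controls and −2.98 against GR-bdl with DEX. The summed intensity of the 3 markers, most of which comes from PYK10, was 9771 to 10410 in mp, 9374 to 9880 in GR-bdl with DEX and 9471 to 9792 in the controls. EXPA7 and EXPA18 were close to the lower limit in mp. In GR-bdl with DEX against the controls, where the difference of JKD was −0.80, EXPA7 differed by −0.51 ± 0.22, EXPA18 by 0.09 ± 0.25 and PYK10 by 0.005 ± 0.11. None of these was called, and EXPA7 alone had an unadjusted limma p under 0.05.

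YAB3 was higher in mp than in each GR-bdl group. Its levels were 8.75 and 8.76 in mp, 7.72 and 8.11 in GR-bdl with DEX, and 7.77 and 7.70 in the controls. The mp arrays lay above all others, while the arrays of GR-bdl with DEX enclosed control array 1. YAB3 rose in mp by 1.02 ± 0.14 against the controls, which is 2.03-fold, with an interval of 0.69 to 1.35 and a limma adjusted p of 0.000596. It rose by 0.84 ± 0.14 (1.79-fold, 0.51 to 1.17, limma adjusted p = 0.00181) against GR-bdl with DEX. Between GR-bdl with DEX and the controls the difference was 0.18 ± 0.14 (−0.15 to 0.51, limma adjusted p = 0.686), so these neighbours in the order of levels did not differ beyond their spread. That value was 0.38 without array 1 of GR-bdl with DEX and −0.02 without its array 2. Both increases in mp were called in each of 14 other settings, between 0.71 and 1.06 against the controls and between 0.56 and 1.04 against GR-bdl with DEX. Centring on the hybridization controls gave the lowest value of each range.

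Of 20 listed genes of the YABBY family and of leaf polarity, 3 were measured beside YAB3. YAB5, another YABBY gene of leaves, had 7.77 and 8.03 in mp, 5.69 and 5.81 in GR-bdl with DEX, and 6.22 and 6.17 in the controls. It rose in mp by 1.71 ± 0.13 against the controls and by 2.15 ± 0.13 against GR-bdl with DEX (limma adjusted p = 1.47e-05 and 3.67e-06), and differed by −0.45 ± 0.13 between GR-bdl with DEX and the controls (limma adjusted p = 0.166). SEU, which encodes a co-repressor that works with YABBY factors, fell by 0.39 ± 0.11 and 0.52 ± 0.11 in mp. The decrease of SEU against the controls was not called without control array 1 (0.153), control array 2 (0.0843) or mp array 2 (0.121). INO, a YABBY gene of ovules, was close to the lower limit in each group and was not called. In either mp comparison 1 of the 3 was called higher and 1 lower, with a median of 0.21 and 0.20. Of all probe sets, 23.9% and 22.1% were called higher and 17.5% and 18.0% lower in these comparisons. In GR-bdl with DEX against the controls none of the 3 was called, and 1, YAB5, had an unadjusted limma p under 0.05.

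**Figure D3:**
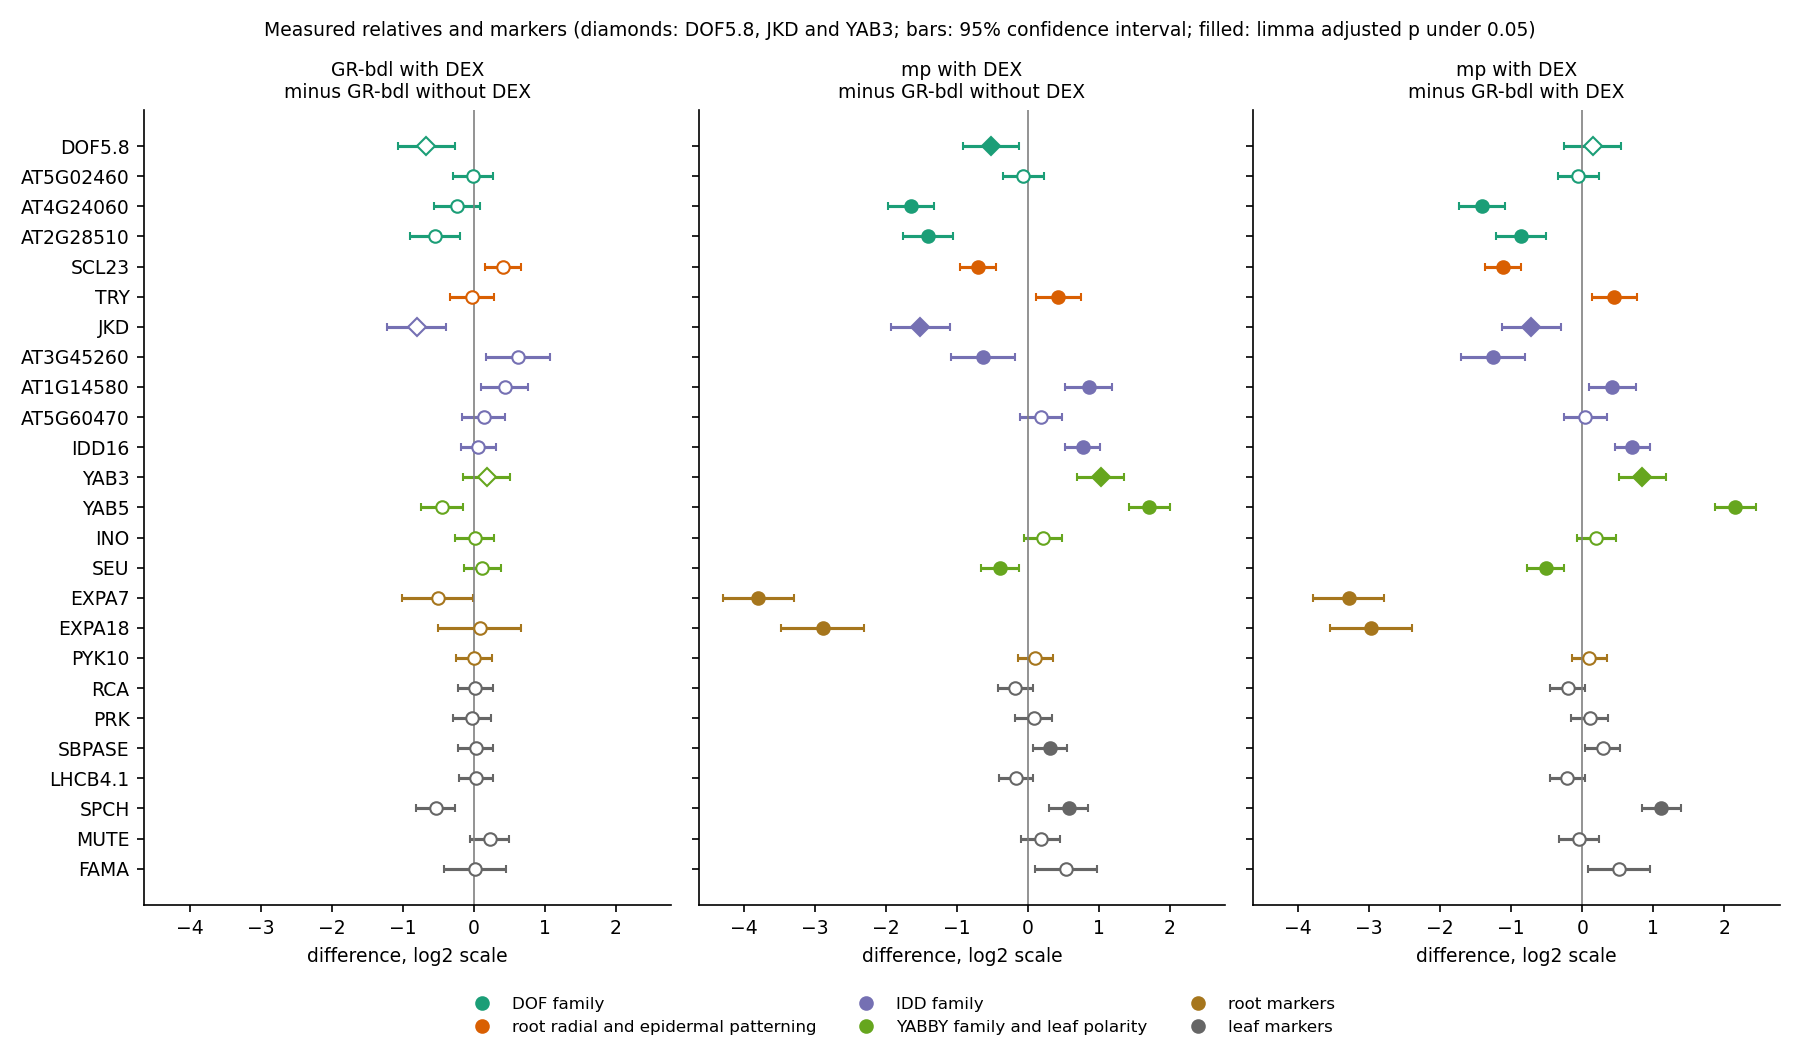
Differences on the log2 scale (x axis) of the measured relatives and markers (y axis) in the 3 comparisons. Diamonds are DOF5.8, JKD and YAB3, circles are genes of the lists, colours mark the lists, bars are 95% confidence intervals, and filled symbols had a limma adjusted p under 0.05. In mp, YAB5 and YAB3 lie to the right, while JKD, AT4G24060, AT2G28510, EXPA7 and EXPA18 lie to the left.

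Leaf markers stood beside YAB3 as follows, and their part in its increase was not tested. Of 10 listed leaf markers 7 were measured. In mp, 2 of them were called higher against the controls and 1 against GR-bdl with DEX, beside 23.9% and 22.1% of all probe sets. The median of the 7 markers was 0.18 and 0.11. SPCH, which starts the stomatal lineage, had 5.52 and 5.42 in mp, 4.42 and 4.30 in GR-bdl with DEX, and 4.99 and 4.80 in the controls. It rose by 0.58 ± 0.12 and 1.11 ± 0.12 in mp. The first of these calls was lost after centring on the hybridization controls (0.27) and without control array 2 (0.48, limma adjusted p = 0.0583). SBPASE of the Calvin cycle was called against the controls only, at 0.31 ± 0.11, and lost that call when any array of mp or of the controls was left out, at limma adjusted p values of 0.102 to 0.224. None of the 7 was called in GR-bdl with DEX against the controls, where SPCH alone had an unadjusted limma p under 0.05 (−0.53 ± 0.12).

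FAMA, a gene of guard cell formation, had 4.31 and 4.05 in mp, 3.96 and 3.38 in GR-bdl with DEX, and 3.62 and 3.68 in the controls. Its differences of 0.54 ± 0.19 and 0.51 ± 0.19 in mp were not called (limma adjusted p = 0.0516 and 0.0618). They were called under other settings, among them a trended and robust prior (limma adjusted p = 0.0394 and 0.0488). The second was 0.81 without array 1 of GR-bdl with DEX. Centring on the hybridization controls shifts the 2 differences by −0.31 and −0.29, as it does those of every probe set, SBPASE among them. RCA, PRK and LHCB4.1, genes of photosynthesis, differed by −0.18 ± 0.11, 0.08 ± 0.11 and −0.17 ± 0.10 from the controls and were not called. With a trended and robust prior, RCA and LHCB4.1 were called lower in mp (limma adjusted p = 0.0136 and 0.009). The summed intensity of the 7 markers, most of which comes from LHCB4.1 and RCA, was 35010 to 36730 in mp, 37290 to 38990 in GR-bdl with DEX and 37470 to 37620 in the controls. MUTE, a gene of the stomatal lineage, was close to the lower limit in each group, and FAMA in both GR-bdl groups.

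The genes with the profiles most like those of the 3 called genes were found over the 6 arrays, by the root mean square distance between log2 values after each gene's own mean was subtracted. The candidates were 6951 or 6952 probe sets of single genes with a mean level of at least 4. The nearest to JKD was AT2G28510 of the DOF list, at a distance of 0.173, with 6.06 in mp, 6.92 in GR-bdl with DEX and 7.47 in the controls (means of 2 arrays). Next came AT3G23550 at 0.190 and AT4G30060 at 0.191. The nearest to YAB3 were AT2G32500 at 0.0404, AT1G17850 at 0.0499 and AT3G01380 at 0.0588, and AT2G32500 had 8.11 in mp, 7.28 in GR-bdl with DEX and 7.09 in the controls. The nearest to DOF5.8 were AT4G32290 at 0.146, AT4G03140 at 0.161 and AT1G03560 at 0.162. The distances were smaller for YAB3 than for JKD and DOF5.8. The means of JKD and DOF5.8 were themselves below the level required of candidates. Genes with means as low as theirs were not searched, so how closely the profiles were matched cannot be compared. No p-value is given for these distances, and arrays of a group share their line and treatment.

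**Figure D4:**
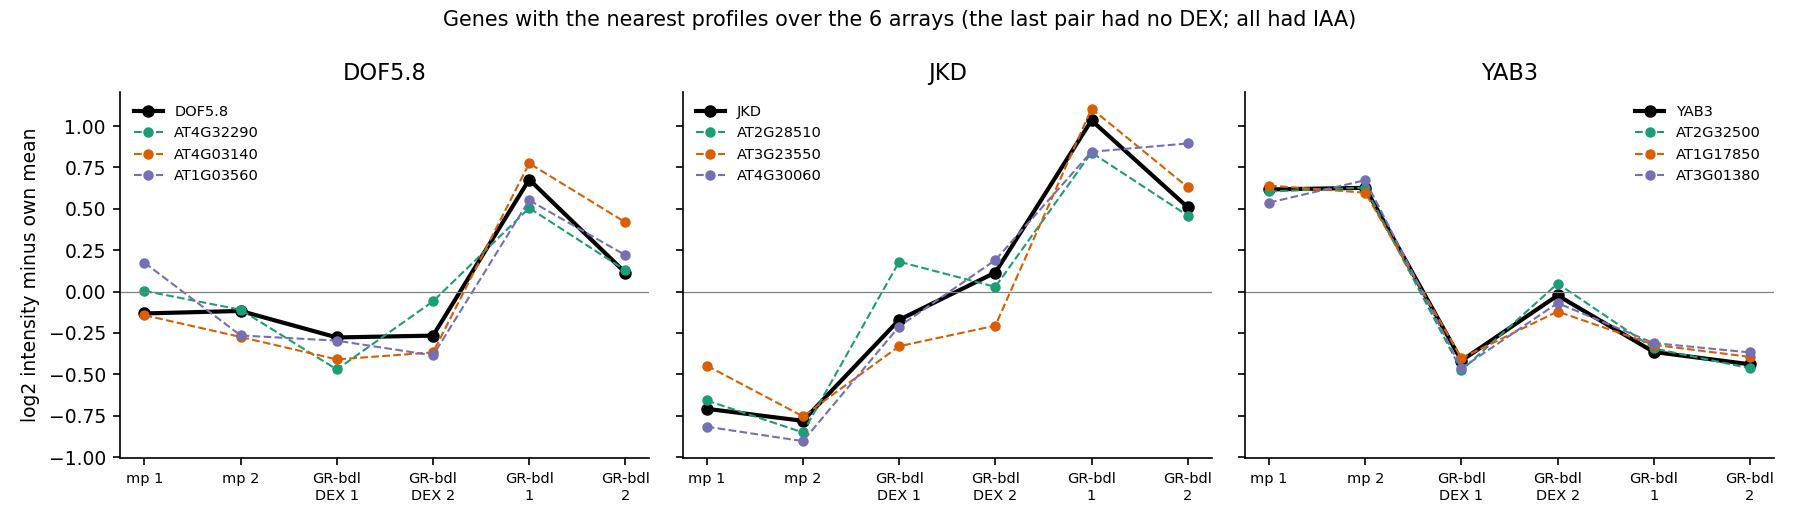
Log2 intensity minus the gene's own mean (y axis) on each of the 6 arrays (x axis) for DOF5.8, JKD and YAB3 (solid black) and the 3 genes nearest to each (dashed). The profile of YAB3 and its neighbours is high in mp and low elsewhere, that of JKD is lowest in mp and highest in the controls, and that of DOF5.8 is high in the controls and most of all on control array 1.

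Among the 5 genes themselves, the largest distance was between JKD and YAB3, 1.05, and the smallest were between LHW and PHV, 0.311, and between DOF5.8 and PHV, 0.315. A distance is also small where both genes vary little. The Pearson correlation over the 6 arrays was −0.14 for LHW and PHV and 0.48 for DOF5.8 and PHV. It was 0.74 for PHV and JKD, at a distance of 0.472, and −0.82 for JKD and YAB3. JKD and DOF5.8 lay 0.450 apart, with a correlation of 0.76. Both were higher in the controls than in each other group on every array. Between mp and GR-bdl with DEX the difference was −0.72 for JKD, which was called, and 0.15 for DOF5.8, which was not called and turned to −0.14 after centring on the hybridization controls. The differences of JKD in the 3 comparisons share arrays and are not independent, as holds for each gene.

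**Figure D5:**
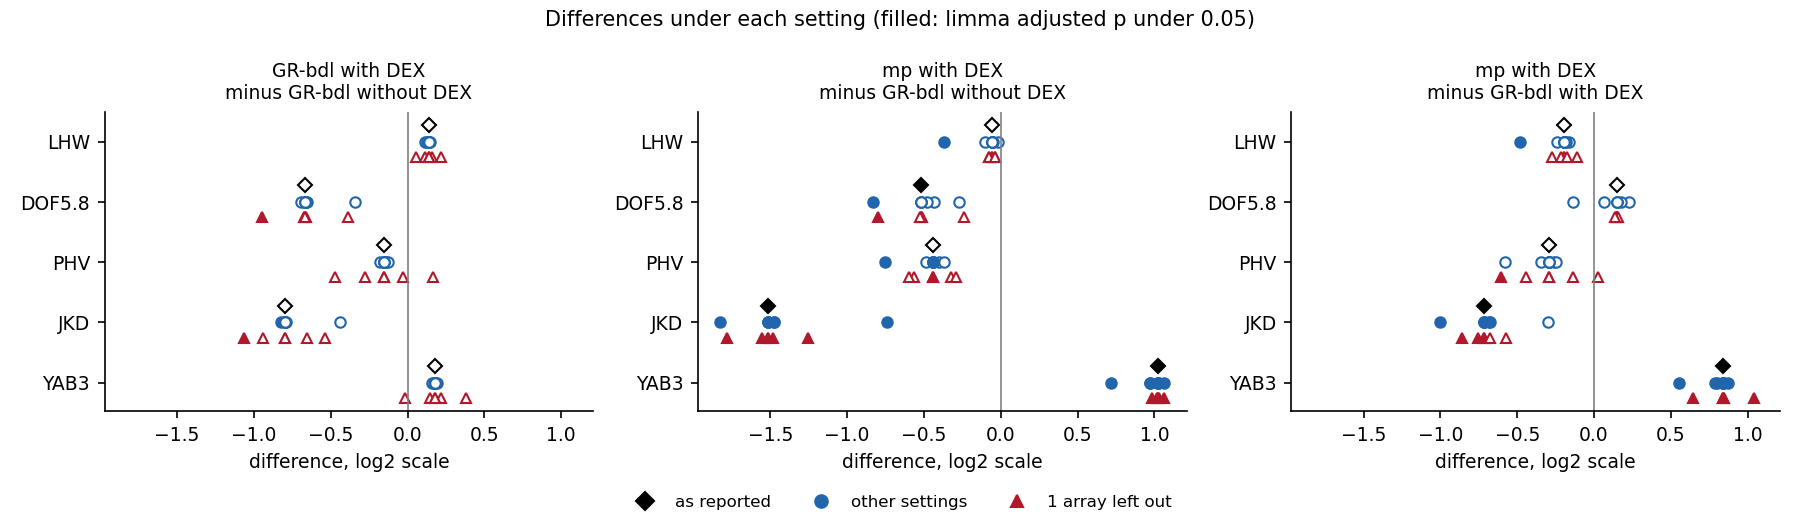
Differences on the log2 scale (x axis) of the 5 genes (y axis) under each setting tried. Black diamonds are the values reported, blue circles are other settings of the normalization, filter, scale or model, red triangles leave out 1 array, and filled symbols had a limma adjusted p under 0.05. All symbols are filled for JKD in mp against the controls and for YAB3 in both mp comparisons. Filled and open symbols are mixed for LHW and PHV in both mp comparisons. They are also mixed for DOF5.8 in both comparisons with the controls and for JKD in both comparisons that include GR-bdl with DEX.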

How the data were processed

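The 6 ATH1 arrays (1 colour, biotin label) were deposited as 1 table of gcRMA intensity values on a linear scale, 1 column per array. The authors made these intensities with gcRMA (version not given in the sources used here), per the submitters' processing notes. Groups were taken from the source labels and the design text, since the treatment text gives DEX throughout and the titles of the mp arrays mention IAA alone. Intensities were log2-transformed without a pseudocount. Leaving out 64 control probe sets, 22746 were tested, of which 13513 were paired with 1 gene and 13436 of these with a RefSeq locus (TAIR10.1, used for names only).

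The test was limma 3.58.1 under R 4.3.3 (a mean per group over all 6 arrays, eBayes, 3 residual and 5.12 prior degrees of freedom) with Benjamini-Hochberg adjustment over all probe sets. The fit was tested on simulated data. The number of arrays limits the precision, and median intensities lay between 26.07 and 27.11. No probe set was paired with MP or BDL alone, so these genes gave no check of the labels.

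The 5 genes, the 10 lists (130 genes, 22 measured) and the rule for named genes were chosen with earlier results of these data known. Named were the 5 genes, up to 6 measured genes per list and the 3 nearest profiles of each called gene. Of several probe sets of a list gene, that with the highest mean was used. Alternatives were other normalizations, a filter on low means, 16 added to the intensity, the replicate number as a block, another prior, the 4 arrays compared alone and leaving out each array. Leaving out an array of the group not compared gives the same fit as the 4 arrays compared alone. Counts of settings therefore hold that fit more than once. Replicate numbers of different groups did not mark paired cultures in the labels. Scripts ran in Python 3.11.15 with pandas 2.3.3 and matplotlib 3.10.9. No sequences of these genes were used here.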

Additional observations from a re-analysis of the deposited data

How the results depend on the processing

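Of the 15 differences of the 5 genes, those of JKD in mp against the controls and of YAB3 in both mp comparisons were called under every setting that gave a value. Centring on the 18 hybridization controls lowered all differences of mp (medians of −0.19 and −0.22, against 0.12 and 0.07), which by construction made differences more negative and brought calls to LHW (−0.37 and −0.48) and to PHV against the controls (−0.75). Under it JKD was also called in GR-bdl with DEX against the controls (−0.82). Under it 27.5% and 28.0% of the calls in mp against the controls and against GR-bdl with DEX were higher, against 57.7% and 55.2% as reported. DOF5.8 in mp against the controls lost its call with repeated quantile normalization (−0.43), median centring (−0.48), with 16 added to the intensities (−0.27) or in the fit of 4 arrays (−0.52). JKD in mp against GR-bdl with DEX was not called with 16 added (−0.30), and JKD in GR-bdl with DEX against the controls was called with a trended and robust prior (−0.80). PHV in mp against the controls was called in the fit of 4 arrays (−0.44). Where these changes go beyond the change of scale or number of arrays, the cause was not tested. With 1 array left out, where the lone array is assumed to vary like the other groups, DOF5.8 ranged from −0.95 to −0.39 in GR-bdl with DEX and from −0.80 to −0.24 in mp against the controls. PHV ranged from −0.60 to −0.29 in mp against the controls and from −0.61 to 0.027 against GR-bdl with DEX. JKD ranged from −1.06 to −0.54 in GR-bdl with DEX against the controls and from −0.86 to −0.57 in mp against GR-bdl with DEX.

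For GR-bdl with DEX against the controls, the number of probe sets called was 517 as reported, 231 with 16 added, and 240 to 437 with 1 array left out (275 without control array 1 and 240 without control array 2). The filter on low means left out DOF5.8 and JKD, so it gave them no value. Fitted with the replicate number as a block, no call on the 5 genes changed: JKD stood at −1.52, YAB3 at 1.02 and DOF5.8 at −0.52 in mp against the controls. The deviations of same-numbered arrays correlated at −0.03, −0.04 and 0.10 between groups. These values show no strong pairing by number, but they cannot exclude a weak pairing or one limited to some genes. DOF5.8 and JKD lie close to the lower limit of the gcRMA scale in mp and in GR-bdl with DEX, which limits the size that a decrease can show.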

Other observations

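Control arrays 1 and 2 had 4.61 and 4.04 for DOF5.8, 4.94 and 4.42 for JKD, and 6.75 and 6.50 for PHV. They had 7.77 and 7.70 for YAB3 and 7.84 and 7.88 for LHW. The SD of these arrays was 0.053 for YAB3 and 0.030 for LHW, below the median of 0.0725 over all probe sets in that group. The SD of the control arrays for JKD, 0.37, was larger than that of 98.8% of the probe sets in that group. AT2G28510, the nearest profile to JKD, had 7.66 and 7.28 on these arrays.

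In mp, the arrays of a group lay closest together for YAB3, with an SD of 0.007, smaller than that of all but 3.97% of probe sets, and farthest apart for PHV, with 0.22.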
